A study of Aspergillus niger with 27 samples.

Results

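The sugar beet pulp section of a pie-plate colony of the filamentous fungus Aspergillus niger was examined for differences among its compartments 4, 5 and 6. A pie-plate is a dish with physically separate wedges of liquid medium under a perforated membrane, which lets proteins and metabolites through and holds the hyphae above it, so that, per the labels, wedges can influence each other only through the mycelium. The labels also state that radial growth differed with the carbon source, so mycelium of different compartments need not be of the same size or age. Each of 3 plates, labelled A, B and C, carried 1 colony that was inoculated at the centre and grew outward over all 9 compartments. The 9 sugar beet pulp libraries, 1 per plate and compartment, were taken out of 27 by the substrate and compartment in their labels. The other libraries come from glucose (compartments 1 to 3) and wheat bran (compartments 7 to 9). All groups are mycelia of the same species, and the labels give no strain, age or treatment beside the substrate. Per the labels, each section has a compartment with its own substrate on either side and others with a different substrate on 1 side. The labels do not say which compartment number has which neighbours. The question the comparison addresses is whether mycelium over the same substrate differs with what lies beside it.

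Sugar beet pulp is a residue of sugar production that is rich in pectin, arabinan and cellulose. Aspergillus niger feeds on such material by secreting enzymes that cut these polysaccharides into sugars such as galacturonic acid and arabinose, which in turn induce the genes for their own release, uptake and breakdown. Glucose represses many of these genes. The count table names genes by numbered IDs without gene names, so no role is given to any ID here and no pathway is named.

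The sugar beet pulp libraries held 12078576 to 20473260 counts over 11846 gene models, of which 22 had 0 counts in all 9 libraries. Compartment 4 differed from the other compartments as a library. Its 20 most abundant genes took 21.9% to 24.9% of the counts, against 14.7% to 17.7% in compartment 5 and 14.7% to 16.3% in compartment 6. Its scaling factors (TMM, a factor that sets the bulk of genes equal between libraries) were 0.851 to 0.936, against 0.993 to 1.12 and 1.02 to 1.14. The groups of compartments 4 and 6 did not overlap in either measure, and the two-sided exact permutation p was 0.1 for each, the smallest that 3 against 3 plates allow. The part of these library differences in the results was not tested, except that other scalings are given beside them.

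Both the plate and the compartment set the libraries apart. Of the variance among the 9 libraries in log2 CPM (counts divided by the scaled library size, on a fixed per-library total), 47.0% lay between plates, 33.3% between compartments and 19.7% in the residual. On the first principal component the 3 libraries of plate A lay at 10.6, 45.6 and 59.3 in compartments 4, 5 and 6. Those of plate B lay at -46.8, -2.51 and -2.60, and those of plate C at -42.2, -18.8 and -2.59. Plate A thus stood apart from plates B and C, while compartment 4 had the lowest score on every plate. The root mean square difference of log2 CPM between compartments 4 and 6 of a plate was 0.693 to 0.804, against 0.524 to 0.682 between 4 and 5 and 0.351 to 0.544 between 5 and 6. Libraries of the same compartment on different plates differed by 0.492 to 0.828. All comparisons were therefore made within plates, with the plate as a block.

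**Figure D1:**
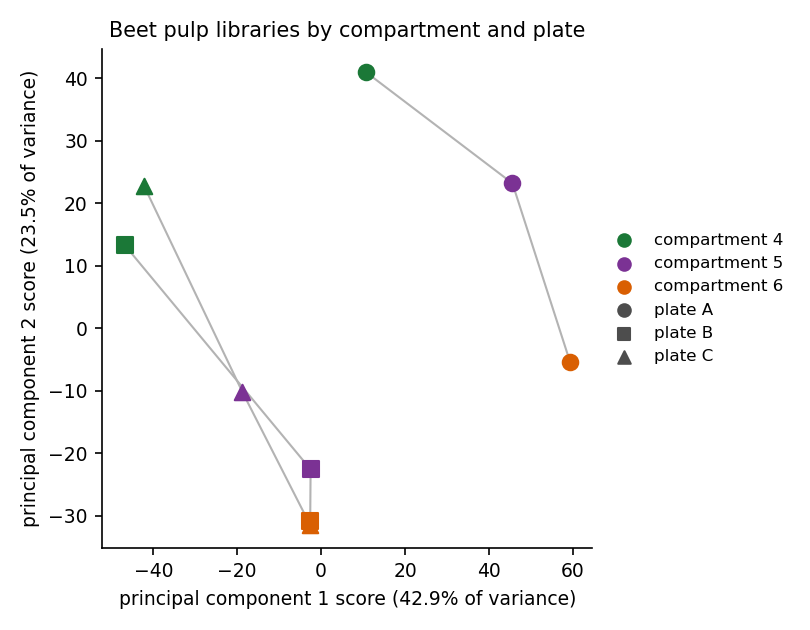
Principal component scores of the 9 sugar beet pulp libraries, computed from log2 CPM, with colour for the compartment, marker shape for the plate and grey lines joining the libraries of a plate. Component 1 takes 42.9% and component 2 takes 23.5% of the variance; plate A lies to the right of the other plates, and on each plate compartment 4 has the lowest component 1 score and the highest component 2 score.

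From compartment 4 to compartment 6, 1016 genes rose and 1136 fell among 10665 tested, with edgeR's quasi-likelihood F-test and a Benjamini-Hochberg adjusted p under 0.05. The call thus took 20.2% of the genes tested, 9.53% upward and 10.7% downward. Changes of at least 2-fold were seen in 428 risen and 424 fallen genes, and changes of at least 4-fold in 106 and 52. The call itself favours genes whose changes agree on these plates, so the plate values of called genes given next only describe them. The direction was the same on all 3 plates for 2137 of the 2152 called genes, and for 53.2% of all genes tested. Of the 15 exceptions, 9 went against the call on plate A, 2 on plate B and 4 on plate C. The values of the 3 plates did not overlap between compartments 4 and 6 for 1377 of the called genes, against 21.7% of all genes tested. The median log2 change of the genes that rose was 0.78, 0.95 and 1.00 on plates A, B and C, and that of the genes that fell was -0.79, -0.87 and -0.89, around medians of all genes of -0.04, -0.02 and 0.02. Across genes, the changes of different plates correlated with an r of 0.58 between A and B, 0.46 between A and C and 0.66 between B and C. These r are across genes, which are not independent replicates.

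The number of calls depended strongly on the fit. In a fit of all 27 libraries of the series, 75 genes rose and 80 fell from compartment 4 to 6. All 155 are among the 2152. That fit differed in its estimate of the spread, in its filter and scaling factors, and in plate effects shared over all substrates. With no plate block, the 9 libraries gave 201 calls. Leaving out plates A, B and C in turn gave 1752, 354 and 1121 calls. No gene called both there and in the main fit changed its direction. These fits share libraries with the main fit, so this is no independent check. The balance of directions depended on the scaling, since 47.2% of the calls were higher in compartment 6 with TMM and 83.9% with library size alone (2631 higher and 506 lower), where the median change over all genes, on the log2 scale, moved from -0.0024 to 0.28. Directions below are relative to the bulk of genes, as TMM sets it.

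From compartment 4 to 5, 185 genes rose and 344 fell, 4.96% of the genes tested, with 1.73% upward and 3.23% downward. At least 2-fold were 99 of the rises and 225 of the falls. All 529 moved the same way on the 3 plates, which the call favours, as did 48.3% of all genes tested. This comparison shares its compartment 4 libraries with the former, so the lists are not independent. Leaving out plates A, B and C in turn gave 675, 5 and 223 calls, against 872 with DESeq2 and 14 with the fit of all 27 libraries. With library size alone, 1551 genes were higher and 240 lower.

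Compartments 5 and 6 were the closest pair. Only 4 genes passed, 0.0375% of those tested, all higher in compartment 6. At an unadjusted p under 0.05 there were 640 genes, 6.00% of those tested, and DESeq2 called 74, of which 59 were higher and 15 lower. Values of the 3 plates did not overlap for 3 of the 4 called genes, which the call favours, against 4.28% of all genes tested. The changes from 5 to 6 on different plates correlated across genes with an r of 0.15 between A and B, 0.17 between A and C and 0.04 between B and C. Neither the fit without plate B nor that without plate C kept any of the 4, and in the fit of all 27 libraries none passed. Over the 3 compartments together, 1134 genes differed, 10.6% of those tested.

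**Figure D2:**
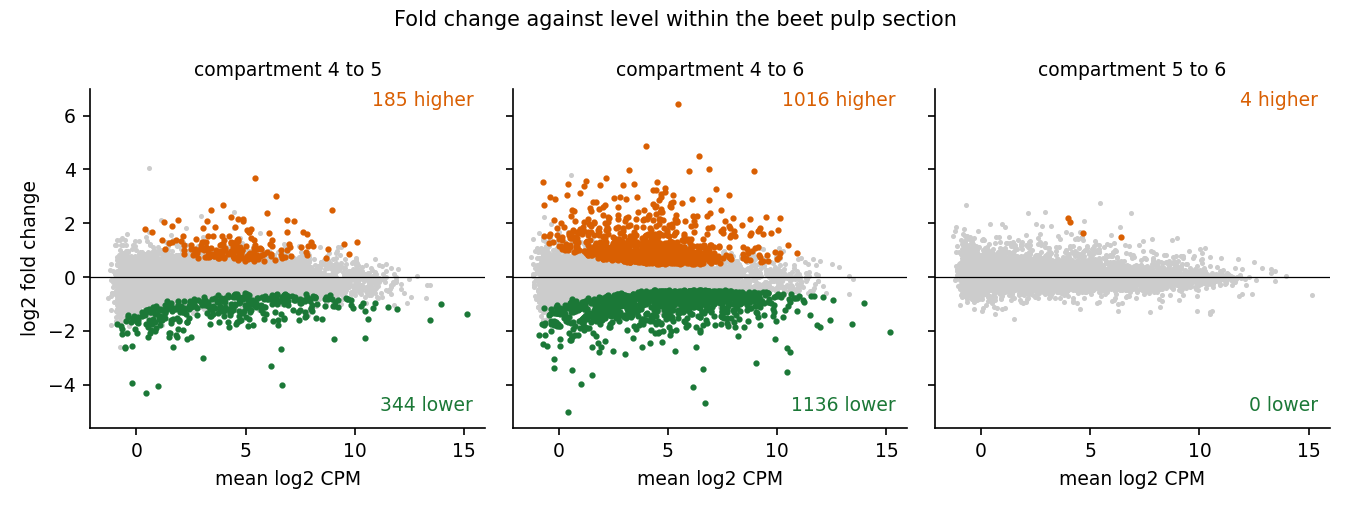
Log2 fold change of each of 10665 genes against its mean log2 CPM over the 9 libraries, for compartments 4 to 5, 4 to 6 and 5 to 6. Orange points are genes called higher and green points genes called lower in the second compartment, grey points were not called; the calls number 185 and 344, 1016 and 1136, and 4 and 0.

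The genes named below were picked by the size of their change and, under the naming rule, for moving alike on 3 plates. Their values thus describe that choice. NRRL3_7460, the gene with the largest rise by the naming rule, stood at 4.54, 4.09 and 4.57 CPM in compartment 4 on plates A, B and C. It stood at 88.6, 94.5 and 14.9 CPM in compartment 5 and at 633, 262 and 296 CPM in compartment 6. The 3 groups did not overlap, and the plates differed most in compartment 5, where plate C was low. The change on the log2 scale, 4 to 5, came to 3.68 (SE 0.52), and 4 to 6 to 6.42 (SE 0.56), with edgeR quasi-likelihood adjusted p of 0.0047 and 1.1e-04. Its call from 4 to 5 was lost without plate B, at 3.12 with an edgeR adjusted p of 0.148, and with no block, at 3.90 with 0.06445.

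NRRL3_3709 rose by a similar course. It stood at 28.9, 17.7 and 6.45 CPM in compartment 4 on plates A, B and C, at 211, 151 and 57.0 in compartment 5 and at 614, 297 and 210.2 in compartment 6. Plate A was the highest and plate C the lowest in each compartment, so that compartment 5 of plate A reached as high as compartment 6 of plate C, whereas each plate rose at both steps. Log2 fold changes of 3.02 (4 to 5, SE 0.22), 4.50 (4 to 6, SE 0.23) and 1.48 (5 to 6, SE 0.20) came with edgeR quasi-likelihood adjusted p of 1.0e-04, 5.6e-06 and 0.0436. The ID before it, NRRL3_3708, went from 117 ± 41.3 CPM to 669 ± 263 and 1742 ± 273 in compartments 4, 5 and 6 (SD, n = 3 plates). It was chosen after its values were seen, as were the other neighbours of named IDs.

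The other genes that passed from 5 to 6 were NRRL3_9019, NRRL3_10870 and NRRL3_7459, the last and NRRL3_3709 named because so few passed. NRRL3_9019 stood at 6.89, 7.88 and 17.3 CPM in compartment 4 on plates A, B and C, at 7.84, 11.4 and 14.7 in compartment 5 and at 36.6, 28.3 and 87.7 in compartment 6. Its step between compartments 4 and 5 did not pass, at 0.17 on the log2 scale (SE 0.23, edgeR adjusted p = 0.68), and its step between 5 and 6 came to 2.04 (SE 0.23, adjusted p = 0.0080). NRRL3_10870 rose at both steps, from 7.94, 9.44 and 11.03 CPM to 19.8, 23.0 and 29.3 and then to 53.0, 63.2 and 115, with no overlap between compartments and log2 fold changes of 1.34 (SE 0.18) and 1.63 (SE 0.17). NRRL3_7459, the ID before NRRL3_7460, stood at 2.80 ± 0.676, 19.1 ± 10.1 and 81.5 ± 12.9 CPM (SD, n = 3 plates), and its log2 fold change between 4 and 6 came to 4.87 (SE 0.27).

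For some of the fallen genes named here, the level in compartment 4 varied widely between plates. NRRL3_1699 stood at 51.0 CPM on plate A, 2530 on plate B and 1975 on plate C in compartment 4. It stood at 24.2, 64.1 and 88.7 CPM in compartment 5 and at 13.7, 54.3 and 48.5 in compartment 6. Plate A in compartment 4 thus lay within the range of the other compartments, and it fell along with them from its own lower start. Log2 fold changes of -4.00 (4 to 5, SE 0.70) and -4.70 (4 to 6, SE 0.71) came with edgeR adjusted p of 0.0111 and 0.0020. The call from 4 to 6 was lost without plate B, at a log2 fold change of -4.01, and that from 4 to 5 without plate B or C.

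NRRL3_4330 fell on all plates as well. It stood at 205, 758 and 338 CPM in compartment 4 on plates A, B and C, at 8.65, 64.0 and 113 in compartment 5 and at 5.11, 58.4 and 45.0 in compartment 6, so that compartment 4 was the highest throughout. Log2 fold changes of -3.30 (4 to 5, SE 0.49) and -4.08 (4 to 6, SE 0.50) came with edgeR adjusted p of 0.0057 and 5.5e-04. Without plate B the call from 4 to 5 was lost at a fold change of similar size, -3.17. With no block, the calls were lost from 4 to 5, at -2.81 with an edgeR adjusted p of 0.4165, and from 4 to 6, at -3.58 with 0.1003. In the edgeR fit of all 27 libraries, NRRL3_7460, NRRL3_3709, NRRL3_1699 and NRRL3_4330 all kept their call from 4 to 6 and lost that from 4 to 5. Their adjusted p from 4 to 6 were 0.0119, 0.0155, 0.0251 and 0.0250.

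The consecutive IDs NRRL3_1765 and NRRL3_1766 differed in how alike the plates were. NRRL3_1765, an abundant gene, stood at 812, 15761 and 9513 CPM in compartment 4 on plates A, B and C and at 295, 591 and 595 in compartment 6, so the size of its fall rested on plates B and C. NRRL3_1766 stood at 317, 370 and 551 CPM in compartment 4, at 53.9, 53.8 and 88.0 in compartment 5 and at 33.3, 37.4 and 42.4 in compartment 6. Its fall was nearly alike on all plates, at -3.42 on the log2 scale (SE 0.18) with an edgeR adjusted p of 5.6e-06, which was 1.3e-05 in the fit of all 27 libraries.

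**Figure D3:**
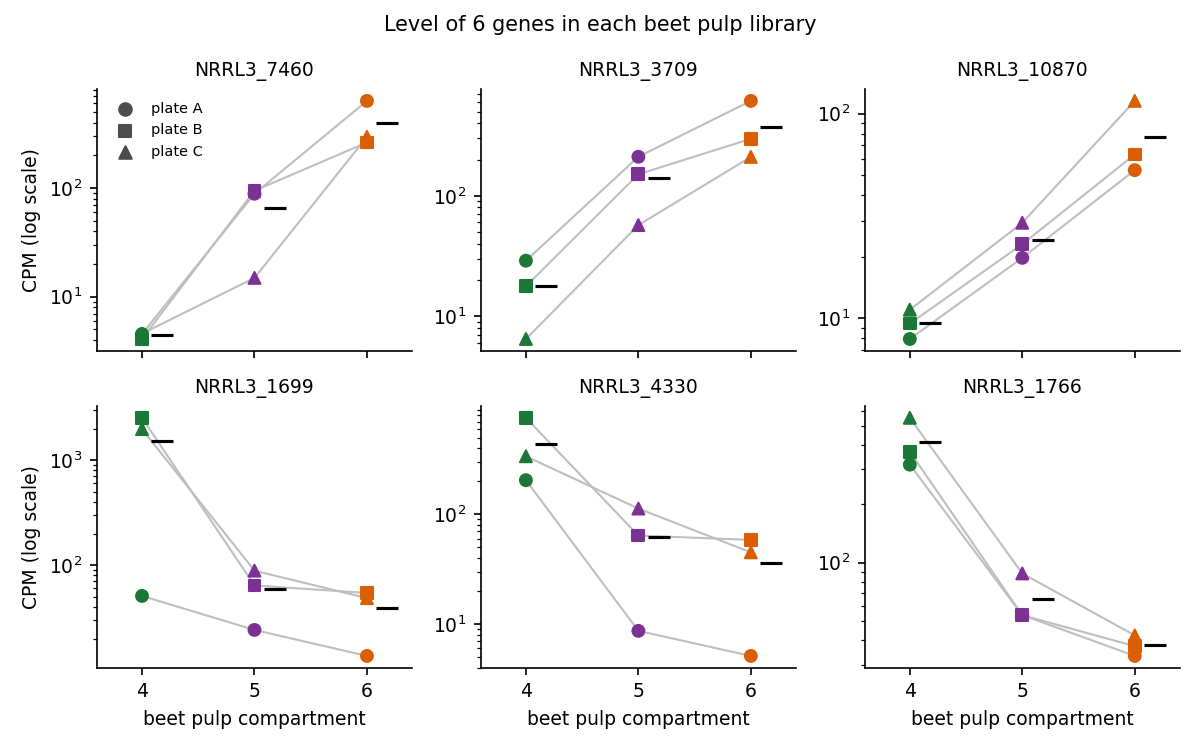
CPM on a log scale in each of the 9 sugar beet pulp libraries for 3 genes that rose (upper row) and 3 that fell (lower row) from compartment 4 to 6. Markers give the plates, grey lines join the libraries of a plate and black dashes mark the mean of 3 plates; NRRL3_1699 is low in compartment 4 on plate A, at 51.0 CPM, and the lines of NRRL3_1766 run close together.

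The genes that fell were more abundant than those that rose. Their median of mean log2 CPM was 5.29, against 4.26 for the genes that rose and 4.17 for all genes tested. Among the 2666 genes above 5.70 log2 CPM, 502 fell and 203 rose, while among the 2666 from 2.10 to 4.17 log2 CPM 200 fell and 349 rose. As a share of all counts, which needs no scaling, the 1136 fallen genes took 30.6%, 38.3% and 36.7% in compartment 4 on plates A, B and C. They took 20.8%, 23.1% and 23.9% in compartment 5 and 16.9%, 19.7% and 18.4% in compartment 6. The 1016 risen genes went from 4.24%, 2.84% and 2.93% in compartment 4 to 7.38%, 6.88% and 5.62% in compartment 5 and 11.8%, 8.33% and 8.21% in compartment 6. These shares describe genes that the same contrast chose and are given without a test. Of the 50 most abundant genes of compartment 4, 37 were also among the 50 most abundant of compartment 6, and 40 among those of compartment 5, while compartments 5 and 6 shared 44. In the union of the lists of 4 and 6, which holds 63 genes, 21 fell and 3 rose. Of all genes tested, 10.7% fell and 9.53% rose, and the genes above 5.70 log2 CPM given before are the nearer background. No gene went from under 1 CPM on every plate in one compartment to 10 CPM or more on every plate in another.

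For most genes called from 4 to 6, compartment 5 lay between the ends and nearer to compartment 6. Compartment 5 is not an end of that contrast, but its libraries entered the same fit, filter and scaling. The place of compartment 5 was taken as the share of the log2 change from 4 to 6 that was reached in 5. The median place was 0.67 for genes that rose, with the middle 50% of genes from 0.52 to 0.82, and 0.71 for genes that fell, from 0.60 to 0.83. For 789 of 1016 risen and 1002 of 1136 fallen genes compartment 5 was nearer to 6 than to 4, or 77.7% and 88.2%, against 67.6% of all genes tested. The median place of all genes tested was 0.70, close to that of the called genes. A gene chosen for a wide gap between 4 and 6 has 5 between them more often by that choice alone, so only the side was compared.

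The place of compartment 5 differed between plates. On plate B its median was 0.93 for risen and 0.93 for fallen genes, next to compartment 6. On plate A the medians were 0.55 and 0.59, and on plate C 0.56 and 0.61, near the middle. All genes tested showed the same order, with medians of 0.95 on plate B, 0.49 on plate A and 0.54 on plate C. Compartment 5 was nearer to 6 for 87.6% of risen and 88.7% of fallen genes on plate B, against 74.9% of all genes. These shares were 56.3% and 62.1% on plate A, against 49.5%, and 57.9% and 64.0% on plate C, against 52.4%.

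**Figure D4:**
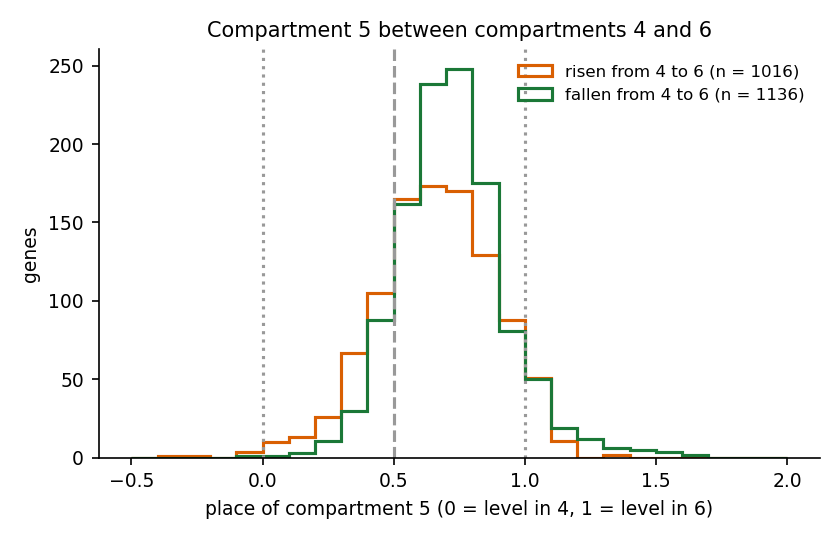
Number of genes by the place of compartment 5 between compartment 4 (at 0) and compartment 6 (at 1) in mean log2 CPM of 3 plates, in steps of 0.1, for the 1016 genes that rose and the 1136 that fell. The dashed line marks the middle; the medians of 0.67 and 0.71 lie to its right, on the side of compartment 6, as does the 0.70 of all genes tested.

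The same genes were then read in the libraries of glucose and wheat bran, which took no part in the calls. Levels were scaled over all 27 libraries and compared with compartment 5. The genes that fell from 4 to 6 were mostly higher on the other substrates than in compartment 5, which itself lay nearer to 6 than to 4 for most called genes. The libraries of compartment 5 were in the fit, so the choice of genes can shape its level. The part of that choice in the shares below was not tested. For 872 of 1136, or 76.8%, the means of glucose and of wheat bran were both above compartment 5, against 34.4% of all genes tested. The median difference from compartment 5 was 0.77 for glucose and 0.87 for wheat bran on the log2 scale, against -0.06 and -0.08 for all genes. The genes that rose were mostly lower there than in compartment 5. Both substrates were below it for 755 of 1016, or 74.3%, against 41.3% of all genes tested, with median differences of -0.86 and -0.84. The sign of these medians was the same on each plate, from 0.47 to 1.08 for fallen genes and from -0.58 to -1.17 for risen genes. With library size alone the shares were 43.8% for fallen genes, against 10.8% of all genes, and 89.0% for risen genes, against 72.9%.

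Relative to each gene's mean over the sugar beet pulp libraries, the median of the fallen genes went from 0.52 ± 0.21 (SD, n = 3 plates, compartment 4) to -0.41 ± 0.22 (compartment 6). In the glucose compartments it ranged from 0.55 ± 0.55 in compartment 3 to 0.81 ± 0.18 in compartment 2, and on wheat bran from 0.45 ± 0.28 in compartment 7 to 1.16 ± 0.23 in compartment 9. Compartment 6 had the lowest median of the 9 compartments for these genes, and for the risen genes the highest, at 0.42 ± 0.18. Its extreme place largely follows from the choice of genes by the change from 4 to 6. The glucose medians varied between plates, from 0.07 to 0.93 for fallen genes in compartment 1, where plate B was the lowest. In wheat bran alone, 562 of 1129 fallen genes rose from compartment 7 to 9 and 90 fell, while 454 of 1006 risen genes fell and 28 rose. Of all genes tested there, 40.9% changed, 18.9% upward and 22% downward. From compartment 1 to 3 in glucose, edgeR called 0 of 10388 genes, with 746 at an unadjusted p under 0.05, and the median log2 changes were -0.03 for risen and -0.14 for fallen genes.

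**Figure D5:**
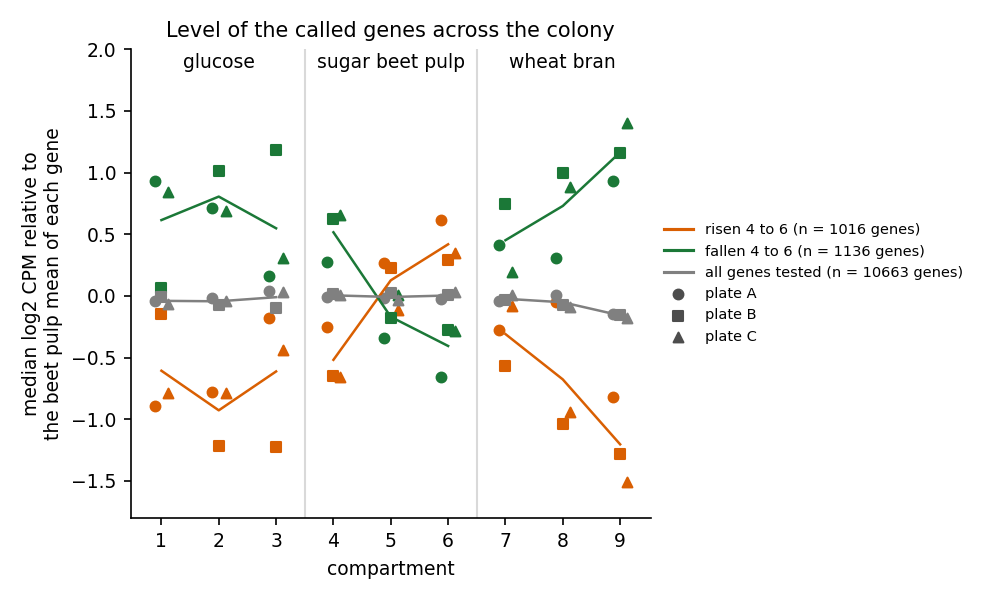
Median log2 CPM, relative to the sugar beet pulp mean of each gene, of the genes that rose (orange) or fell (green) from compartment 4 to 6 and of all genes tested (grey), in the 9 compartments. Markers give the plates and lines the mean of 3 plates within a section; the values in compartments 4 to 6 follow from the choice of genes, and those on glucose and wheat bran come from other libraries, where the fallen genes lie above 0 and the risen genes below 0 in all 18.

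Over the full lists of the main fit, the genes that changed within the section showed little lean toward either of the other substrates, which depended on the fit. Glucose was compared with wheat bran in a separate fit, where 29.1% of 11388 genes differed, with 14.9% higher on wheat bran and 14.2% higher on glucose. With library size alone, these shares were 9.89% and 29.0%. Of the 1016 risen genes, 224 (22.05%) were higher on wheat bran and 18.9% on glucose, and of the 1136 fallen genes 21.9% and 17.5%. By sign alone, 47.1% of the risen and 41.8% of the fallen genes were higher on glucose. The split of the lists by size was made after these values were seen. Of the 106 genes that rose 4-fold or more from compartment 4 to 6, 60 were higher on wheat bran, or 56.6%, and 1 was higher on glucose. Their median log2 fold change from glucose to wheat bran was 2.05. Of the 322 genes that rose from 2-fold to under 4-fold, 28.6% were higher on wheat bran and 10.6% on glucose, and of the 588 that rose by less, 12.2% and 26.7%. In the other direction, 25 of the 52 genes that fell 4-fold or more were higher on glucose, or 48.1%, and 7 were higher on wheat bran. Of the 372 genes that fell from 2-fold to under 4-fold, 24.7% were higher on glucose and 18.8% on wheat bran, with a median log2 fold change from glucose to wheat bran of 0.20. Of the 712 that fell by less, 11.5% were higher on glucose and 24.2% on wheat bran, so that, of the 3 size classes of fallen genes, only the 52 largest falls had a median toward glucose, at -0.68. For the 4-fold rises the share higher on wheat bran was from 31.8% to 77.3% on leaving out each plate, lowest without plate A, and for the 4-fold falls the share higher on glucose was from 27.4% to 57.9%, lowest without plate C, where the share of all genes was 2.84%.

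The named genes, scaled over all 27 libraries, followed no common course on the other substrates. NRRL3_7460 stood at means of 4.01 to 5.85 CPM in the glucose compartments, at 3.27 ± 0.208 in compartment 4 and 290.3 ± 149 in compartment 6, and at means of 114 to 680 CPM in the wheat bran compartments, whose single libraries ran from 10.4 to 1744 (SD, n = 3 plates). NRRL3_10870 stood at 7.04 ± 1.25 CPM in compartment 4, 56.6 ± 24.8 in compartment 6 and 99.6 to 323 in the wheat bran compartments, and glucose compartment 1, at 60.1 ± 48.0, was as high as compartment 6. NRRL3_1766 was high in all glucose compartments, at 708 to 1271 CPM, lower in compartment 4, at 307 ± 95.6, and at 27.6 ± 3.47 in compartment 6, within the 25.5 to 49.4 CPM of wheat bran. NRRL3_9019, another riser, stood at 37.3 ± 23.8 CPM in compartment 6, at 237 ± 151 in glucose compartment 1 and at 429 to 743 on wheat bran. The fallen NRRL3_1699 and NRRL3_1765 had their highest means in wheat bran compartment 9, at 8612 ± 6601 and 23794 ± 5952 CPM. NRRL3_1765 stood almost as high in glucose compartment 2, at 22413 ± 11916, and at 822 ± 331 in wheat bran compartment 7. NRRL3_1699 stood at 2473 ± 1103 in glucose compartment 1 and at 281 ± 358 in wheat bran compartment 7. NRRL3_4330 was high in all wheat bran compartments. It stood at 26.5 ± 20.3 CPM in compartment 6, below glucose, at 520.3 to 1718, and far below wheat bran, at 10855 to 22292.

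Some called genes had consecutive IDs. Of the 1016 risen genes, 292 had a risen gene as the next or previous ID, or 28.7%, and of the 1136 fallen genes 309 had a fallen one, or 27.2%. Of all genes tested, 16.9% had a risen gene and 18.3% a fallen gene as the next or previous ID. Runs of 3 or more consecutive IDs numbered 21 among the risen and 23 among the fallen genes. Whether consecutive IDs lie side by side in the genome is not stated in the table, and reads that overlapping or near-identical genes share could enter such runs, since the counting rule for strand and shared reads is not given.

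The longest run held 10 fallen genes, NRRL3_10152 to NRRL3_10161. Their mean CPM ran from 33.6 to 8430 in compartment 4 and from 10.8 to 2376 in compartment 6, and their log2 fold changes were -1.84 to -0.87, with edgeR adjusted p from 3.9e-04 to 0.0119. The 10 genes thus fell from very different levels. All 10 fell on each plate, which the call favours. Next came 8 fallen genes, NRRL3_10368 to NRRL3_10375, which were weakly expressed, at 1.62 to 49.5 CPM in compartment 4 and 0.342 to 18.5 in compartment 6. Their log2 fold changes ran from -5.03 to -0.83, and 7 of them had also fallen from 4 to 5. Among the risen genes the longest runs held 6 genes each. NRRL3_4913 to NRRL3_4918 rose by log2 fold changes of 0.71 to 3.04, with 2.54 to 355 CPM in compartment 4 and 8.50 to 706 in compartment 6. NRRL3_8634 to NRRL3_8639 rose by 0.77 to 2.99, with 1.42 to 79.4 CPM in compartment 4 and 4.84 to 133 in compartment 6. From compartment 7 to 9 in wheat bran, 2 of the run of 10 rose and 1 fell, and of the run of 8, 6 were tested, of which 1 rose and 1 fell. Of the risen runs, 3 of 6 and 4 of 6 fell there and 0 rose. Of all genes tested from 7 to 9, 18.9% rose and 22% fell. The runs hold too few genes to tell whether they differ from these shares.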

How the data were processed

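The deposited table holds the authors' whole-number counts of reads for each of 11846 gene models in 27 libraries, without normalization. Per the labels' protocols, cDNA came from the SMARTer Ultra Low kit and was read on an Ion Proton. The submitters' processing notes name HTSeq and DESeq2, with no role. Aligner, build, annotation and strand setting: not given in the sources used here. Of the 11846 IDs, 0 matched the gene table supplied, so planned gene lists were not analysed here.

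The 9 sugar beet pulp libraries were tested with edgeR 4.0.16 in R 4.3.3 (quasi-likelihood F-test, TMM factors, filterByExpr, plate as a block, 4 residual degrees of freedom, two-sided, Benjamini-Hochberg over 10665 genes, threshold 0.05). SE was computed as the size of the log2 fold change over the root of F. Log2 CPM had a prior count of 2, and CPM are scaled over the 9 libraries unless 27 are named. Glucose was compared with wheat bran on counts summed per plate and substrate, and compartment 7 with 9 among the wheat bran libraries. Genes were named by the 2 greatest rises and 2 greatest falls per comparison among called genes at 4 log2 CPM or above that moved alike on 3 plates. Members, lists and tests, including this fit in place of the one over all 27 libraries, were chosen with earlier results of these data known.

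The block rests on the labels, which assign each library to a plate. Within a plate, the libraries' deviations from their compartment means were correlated over genes (9 pairs, mean r 0.53, range 0.28 to 0.74). No libraries of a compartment were duplicates, the chi-square per degree of freedom being at least 29.2. With the plate as a block, the p-values measure how the changes between compartments varied among these plates, not how the plates differed in level. The scripts were tested on simulated data. Alternatives were DESeq2 1.42.0, other scalings, no filter, all 27 libraries, no block and each plate left out.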

Additional observations from a re-analysis of the deposited data

How the results depend on the processing

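Counts of called genes are given here for any difference among compartments 4, 5 and 6, for 4 to 5, for 4 to 6 and for 5 to 6, which were 1134, 529, 2152 and 4. With the fit of all 27 libraries they were 96, 14, 155 and 0, the last with edgeR and with 142 genes at an unadjusted p under 0.05. With no replicate block, they were 98, 11, 201 and 0, with 220 at an unadjusted p under 0.05. Leaving out each plate gave 141 to 1179, 5 to 675, 354 to 1752 and 0 to 6, lowest without plate B. From 5 to 6, the count was 0 without plate B (797 at an unadjusted p under 0.05) and without plate C (600). From 7 to 9 it gave 2598 to 4291 genes around 4258, lowest without plate C, and between glucose and wheat bran 878 to 3509 around 3314, lowest without plate C. DESeq2 gave 872 from 4 to 5 and 74 from 5 to 6, RLE factors gave 8 from 5 to 6, and library size alone gave 2205 for any difference and 1791 from 4 to 5. No named gene changed direction in any of these settings. Of 16 named calls, 8 remained with all 27 libraries, 7 with no replicate block, and 15, 7 and 11 without plates A, B and C, while all 16 remained with DESeq2, the other scalings and no filter. The cause of these differences was not tested.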
